A study of Homo sapiens with 4 samples.

Results

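The long arms of chromosomes 21 and 22 are close in length and differ in gene content, and SAF-A occupancy was compared between them and between cell states. SAF-A (scaffold attachment factor A, also called hnRNP U) was profiled by CUT&Tag, a method that cuts and tags DNA with a transposase wherever an antibody has bound and then sequences the fragments. The cells were RPE1, an immortalised human retinal pigment epithelial line, of wild-type genotype in every library. Asynchronous cells and synchronised mitotic cells were each sampled as replicates 3 and 4, from 100000 cells per assay, and each of the 4 libraries has a list of called peaks in coordinates of the human assembly hs1. How cells were brought to mitosis and whether replicates came from separate cultures is not in the labels, and p-values therefore reflect the spread between these samples alone, which may be technical. On 21q the peaks taken were those with a summit (the position of most overlapping fragments) on chromosome 21 from 11400001 to 44840355, and on 22q those on chromosome 22 from 15800001 to 51074615. These limits leave out the centromere and short arm and the last 250 kb before the outermost peak end, and give arms of 33.4 Mb and 35.3 Mb. The 4 lists together held 13361 such peaks of 371322 nuclear peaks (3.60%), 4679 on 21q and 8682 on 22q. Peak number followed sequencing depth. The genome background, the number of fragments expected at any position, was 1.38 (asynchronous replicate 3), 1.17 (asynchronous replicate 4), 1.17 (mitotic replicate 3) and 1.79 (mitotic replicate 4), and the deeper library of each state had the more peaks. Values are given below in that order of libraries.

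SAF-A is an abundant nuclear protein that binds both DNA and nascent RNA and is known for tethering RNA to chromatin, as with XIST RNA on the inactive X chromosome. In interphase it spreads over much of the transcribed nucleus, and in mitosis phosphorylation is known to release it from the chromosome arms. Chromosomes 21 and 22 are the smallest acrocentric chromosomes of the human karyotype. Their short arms carry ribosomal DNA and satellite repeats, and nearly all of their protein-coding genes lie on the long arms. Chromosome 21 is known as gene-poor, with its genes gathered towards the far end of the long arm, and chromosome 22 as gene-rich along most of its length. The label was checked on the RefSeq gene table of GRCh38.p14, which listed 239 protein-coding genes on chromosome 21 and 451 on chromosome 22, a ratio of 1.89. That table was used for names and counts only, since its coordinates belong to another build than the peaks. No gene was assigned to a peak and no peak sequence is printed, because hs1 sequence and annotation were not used here.

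SAF-A peaks were denser on 22q than on 21q in all 4 libraries. On 21q there were 37.2, 29.6, 30.4 and 42.6 peaks per Mb, and on 22q there were 69.5, 52.0, 48.8 and 75.9. The lowest 22q library lay above the highest 21q library. Means over the 4 libraries were 35.0 ± 6.14 peaks per Mb on 21q and 61.5 ± 13.2 on 22q (SD, n = 4). Within libraries, where depth is common to both arms, the 22q to 21q ratio was 1.87, 1.76, 1.60 and 1.78. Its mean was 0.81 ± 0.09 log2 units (SD, n = 4), or 1.75-fold, higher on 22q in 4 of 4 libraries (exact two-sided sign-flip permutation p = 0.125, the smallest that 4 pairs allow). Covered bases gave 1.73-fold. Of 24 units (22 other chromosomes and these 2 arms), 22q had the highest mean density and 21q the tenth highest, although the other chromosomes were counted with their centromeres and short arms. Per protein-coding gene listed in the RefSeq table the chromosomes lay close together. Over whole chromosomes there were 5.64, 4.46, 4.64 and 6.35 peaks per gene on chromosome 21 and 5.65, 4.23, 4.0 and 6.15 on chromosome 22, and the order was not the same in every library.

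**Figure D1:**
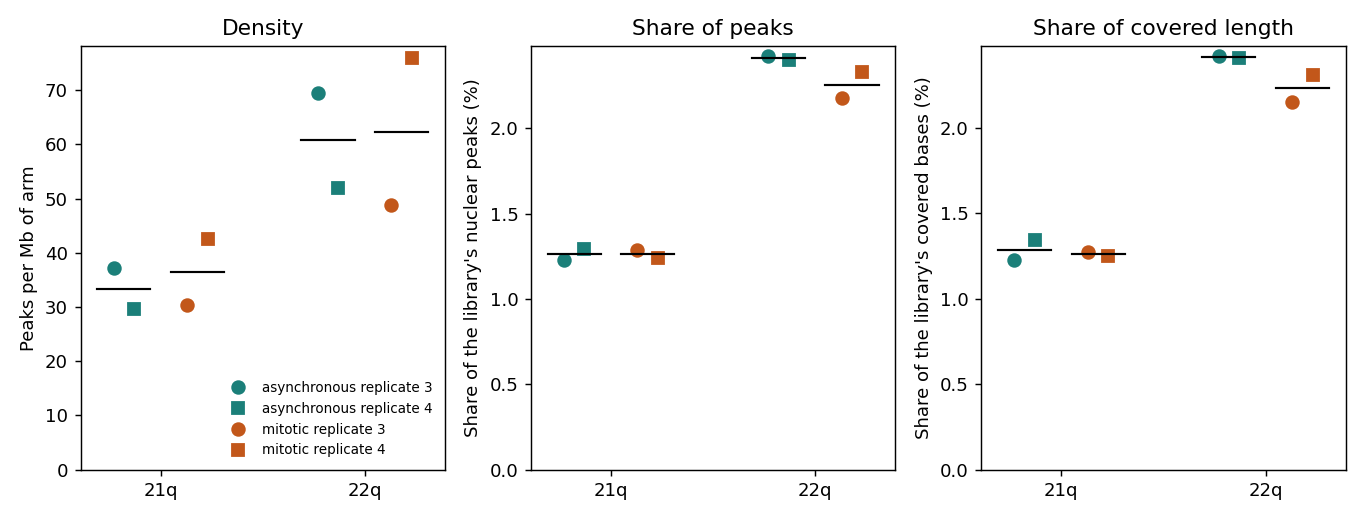
Peaks per Mb of arm, share of each library's nuclear peaks and share of its covered bases on 21q and 22q; each point is 1 library, circles are replicate 3, squares are replicate 4, and bars are the means of 2 libraries. Density on 22q ran from 48.8 to 75.9 peaks per Mb against 29.6 to 42.6 on 21q, and the 22q shares of both mitotic libraries lay below those of both asynchronous libraries.

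The difference in density depended on the place along the arm. Each arm was divided into 5 parts of equal length, counted from the centromere. On 21q the parts held 17.4 ± 3.12, 5.64 ± 1.30, 22.1 ± 4.34, 52.0 ± 9.41 and 77.8 ± 13.3 peaks per Mb (SD, n = 4). On 22q they held 45.6 ± 10.6, 46.2 ± 11.2, 42.0 ± 9.60, 95.6 ± 19.6 and 78.3 ± 15.4 peaks per Mb (SD, n = 4). The arms came closest in the last part, next to the end of the chromosome. Its 22q to 21q ratio was 1.06, 1.01, 0.934 and 1.01, a mean of 0.00 ± 0.08 log2 units (SD, n = 4; exact sign-flip permutation p = 0.875). In the second part, by contrast, the ratio was 10.4, 9.73, 5.44 and 8.07, a mean of 3.03 ± 0.42 log2 units (exact sign-flip permutation p = 0.125). The other 3 parts gave 2.60-fold, 1.89-fold and 1.83-fold, higher on 22q in 4 of 4 libraries (p = 0.125 each by the same exact test, 0.156 after Benjamini-Hochberg adjustment over the 5 parts). On 21q the last 2 parts held 29.7% and 44.5% of the arm's peaks.

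Windows of 1 Mb showed the same contrast in finer steps. The median window held 23.9 summits (mean of the 4 libraries) on 21q and 67.0 on 22q, against 18.3 in the nuclear genome. The genome's 3132 windows, unlike those of the arms, include centromeres, short arms and chromosome Y, and 1194 held fewer than 10 summits. Of the 32 windows wholly inside 21q, 12 held fewer than 10 summits and 6 more than 60, while of the 35 of 22q, 3 held fewer than 10 and 21 more than 60. The 5 densest windows held 44.0% of the summits counted on 21q and 25.9% of those on 22q. The 3 densest windows of 21q were the last 3. Chromosome 21 from 43000001 to 44000000 had 134, 115, 98 and 144 summits, the window from 42000001 had 110, 87, 94 and 131, and that from 41000001 had 104, 84, 86 and 124. The densest of 22q, from 38000001 to 39000000, had 142, 119, 96 and 145 summits. It was followed by the windows from 46000001, with 136, 109, 103 and 142, and from 42000001, with 118, 90, 90 and 138. The densest windows of the arms were thus of similar height, and the arms differed in how many windows came near it.

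**Figure D2:**
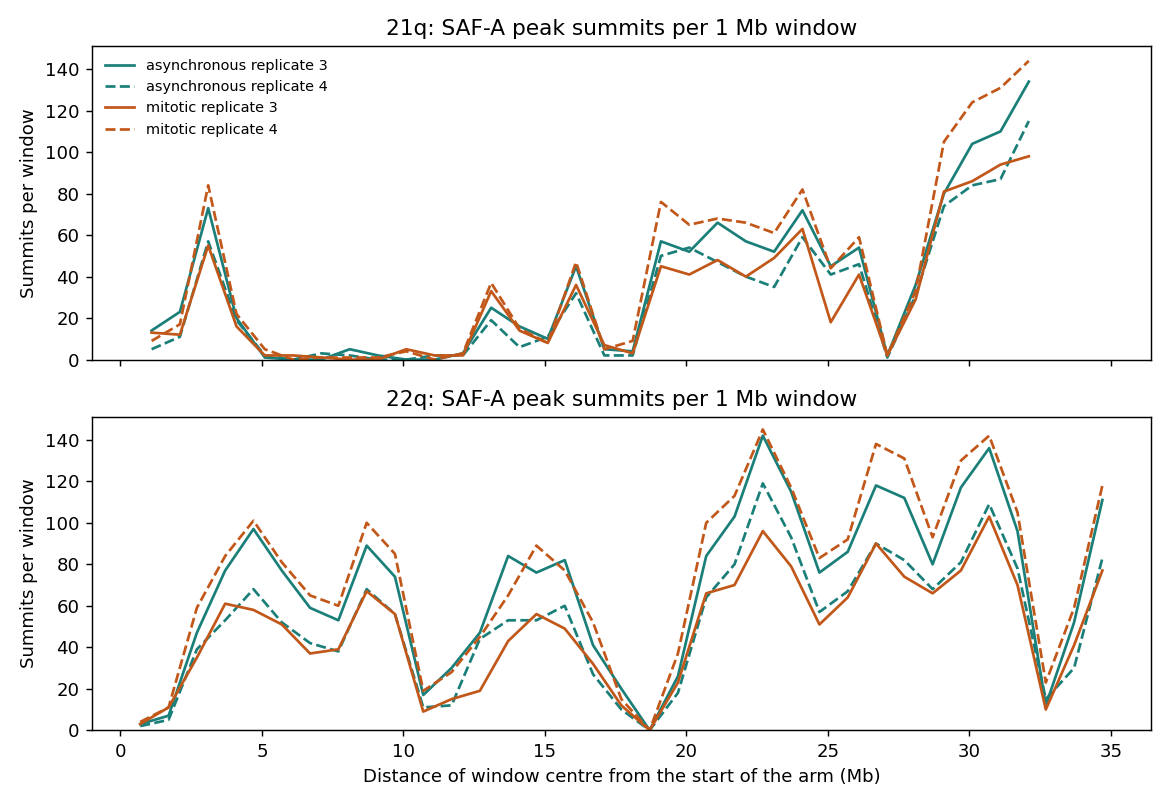
Summits per 1 Mb window along 21q (top) and 22q (bottom) against the distance of the window's centre from the start of the arm; solid lines are replicate 3, dashed lines replicate 4. The 4 libraries followed 1 profile on each arm, with a run of 8 nearly empty windows on 21q, 1 empty window on 22q, and peaks of 122.75 and 125.5 summits (mean of 4 libraries) in the densest windows.

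The longest run of nearly empty windows lay in the proximal part of 21q. A run of 8 neighbouring windows, from 16000001 to 24000000, held 11, 11, 14 and 15 summits in all, with no window above a mean of 2.5. This run was singled out after its values were seen. Its peaks merged into 41 regions, of which 2 were called in all 4 libraries. The longest stretch of 21q with no summit in any list ran from 16677510 to 17744516, 1067 kb. On 22q the longest such stretch was 1739 kb, from 33575539 to 35314882, and the window from 34000001 to 35000000 had 0 summits in every library. Stretches over 100 kb without a summit in any list made up 36.8% of 21q and 15.1% of 22q.

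The strongest SAF-A region of 21q stood at the edge of that empty stretch. It ran from 16677364 to 16677560, 197 bp, and its summits held 242, 250, 177 and 295 fragments. It lay at or above the 99.97 percentile of every list by the authors' p. Its height was 9.68, 11.9, 8.85 and 8.94 times the library's median over the regions called in all 4 libraries, and both mitotic values were the lower ones. That difference did not pass the test (-0.27 log2 units, SE 0.14, limma adjusted p = 0.58). The next regions by mean percentile all lay in the last 2 parts of the arm and were wider. From 42788757 to 42789363 (607 bp) the summits held 187, 167, 135 and 198 fragments, and from 44566147 to 44567022 (876 bp) they held 153, 120, 103 and 175. The regions from 41362699 to 41363665 and from 34539062 to 34539975 had 129, 98, 85 and 152 and 132, 92, 78 and 130 fragments. On 22q the highest ranked region ran from 42068489 to 42069223, with 177, 116, 95 and 203 fragments. It was followed by the regions from 50449498 to 50450137 (159, 116, 85 and 165 fragments), from 39175544 to 39176212 (118, 84, 86 and 152), from 47660494 to 47660946 (91, 72, 47 and 92) and from 38305487 to 38306303 (76, 75, 45 and 105). None of these 10 regions differed between cell states by limma, with adjusted p from 0.41 to 0.98. These regions were chosen among those called in all 4 lists. Those of 21q held more fragments than those of 22q at the same rank by fragments in every library. Over all peaks of an arm, the top 10% of summit heights began at 28, 25, 24 and 34 fragments on 21q. On 22q it began at 28, 27.6, 25 and 34, so that height was not larger on 21q in any library.

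Individual peaks were much alike on the arms despite the difference in number. The median peak was 299, 298.5, 315 and 332 bp wide on 21q and 302, 289, 317 and 328 bp on 22q, with no order common to the libraries (exact sign-flip permutation p = 0.625). The median summit held 12, 12, 11 and 15 fragments on 21q and 1 more in each library on 22q, at 13, 13, 12 and 16. The authors' fold enrichment over local background went the other way, with medians of 3.76, 3.92, 3.89 and 3.61 on 21q and 3.55, 3.69, 3.79 and 3.49 on 22q. It was lower on 22q in 4 of 4 libraries, by 0.06 ± 0.02 log2 units on average (SD, n = 4; exact sign-flip permutation p = 0.125). Local background stood more than 5% above the genome background at 84.3% ± 2.80 of 21q peaks and 90.1% ± 2.20 of 22q peaks (SD, n = 4); this is the denominator of the fold. Neighbouring summits were 9.66, 11.6, 12.004 and 8.48 kb apart at the median on 21q and 8.13, 10.1, 11.3 and 7.60 kb on 22q. The distance was shorter on 22q by a factor of 0.887 only, while mean density differed 1.75-fold; peaks of 21q were thus nearly as close together where they occurred. In all 13 measures were compared between the arms, and after Benjamini-Hochberg adjustment the smallest p was 0.163.

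A smaller share of regions was found in 1 library only on 22q than on 21q, and a larger share in exactly 2 libraries. Overlapping peaks from any of the 4 lists (1 bp or more in common) were joined into regions. On 21q this gave 2997 regions, of which 71.0% (95% Wilson interval 69.3% to 72.6%) had a peak in 1 library and 8.94% (7.97% to 10.02%) in all 4. On 22q it gave 5445 regions, 67.5% (66.2% to 68.7%) in 1 library and 8.89% (8.16% to 9.67%) in all 4. In the rest of the nuclear genome the shares were 71.9% and 8.37%. Regions in exactly 2 libraries were 12.7% (11.5% to 13.9%) on 21q, 16.4% (15.5% to 17.4%) on 22q and 13.4% in the rest of the genome. Intervals cover counting error only. The excess on 22q was found in pairs from different states as well as in pairs of 1 state. Regions shared by asynchronous replicate 3 and mitotic replicate 4 alone, the deepest libraries, were 5.11% of regions on 22q and 3.34% on 21q, and those of the asynchronous libraries alone were 2.35% and 1.47%. Peaks found in 1 library only made up 47.0%, 42.0%, 43.8% and 47.7% of the 21q peaks and 45.0%, 39.2%, 38.1% and 44.6% of the 22q peaks, lower on 22q in 4 of 4 libraries (22q less 21q -3.38 ± 1.64 percentage points, SD, n = 4; exact sign-flip permutation p = 0.125). The share in all 4 libraries was 22.2%, 28.7%, 27.0% and 19.3% on 21q and 20.7%, 27.3%, 29.2% and 18.9% on 22q, without a common order (exact sign-flip permutation p = 0.875). Averaged over pairs of libraries, the share of a list's peaks found in the other list was 38.0% on 21q and 38.7% on 22q. That order turned at a -log10 q of at least 5 (60.9% and 60.3%), with lists of equal length (41.4% and 40.9%) and with a reciprocal overlap of 50% (25.1% and 24.5%).

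The difference in recurrence was largest among weak peaks and was not seen in the strongest class. Each library's nuclear peaks were ranked by the authors' p and divided into 5 strength classes of equal number, 1 the weakest. In class 1 74.1% ± 6.75 of 21q peaks and 66.4% ± 6.50 of 22q peaks were in 1 library only, and in class 2 65.2% ± 3.40 and 58.1% ± 4.89 (SD, n = 4). In class 3 they were 52.1% ± 3.80 and 48.7% ± 2.82, and in class 4 31.0% ± 3.05 and 28.7% ± 5.37 (SD, n = 4). In classes 3 and 4 the order was not the same in every library. In class 5 the shares were 3.43% ± 2.84 and 3.86% ± 1.60. In the same class 77.2% ± 6.68 of 21q peaks and 77.2% ± 6.44 of 22q peaks belonged to a region with a peak in every library (SD, n = 4). Peaks were also denser on 22q, and the part of density in this difference was not tested.

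**Figure D3:**
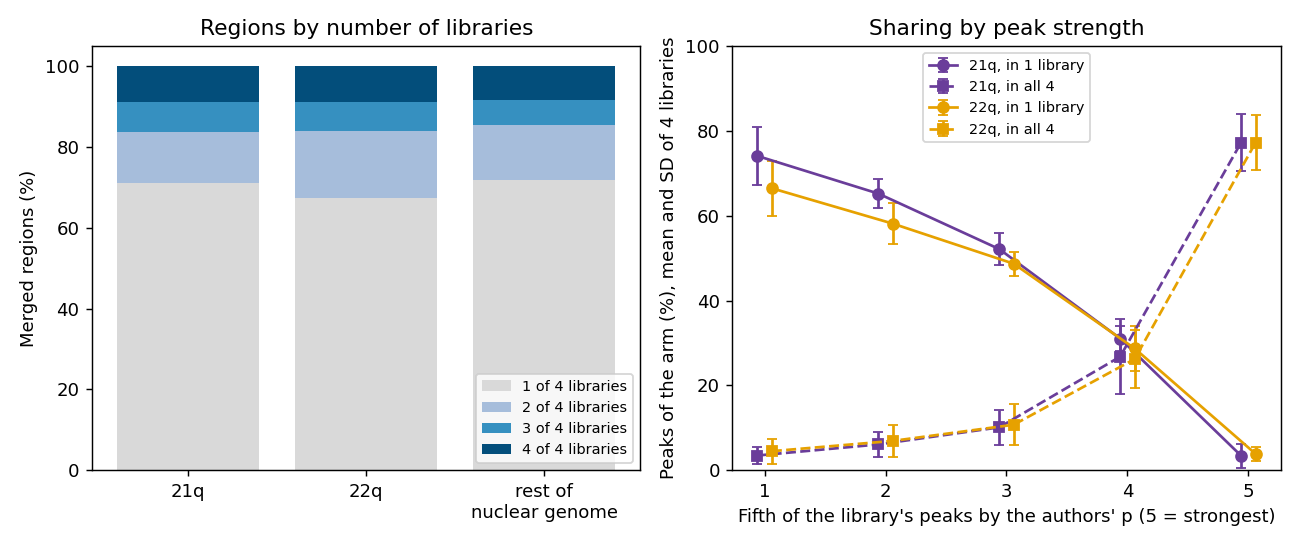
Left, merged regions by the number of libraries with a peak, on 21q, 22q and the rest of the nuclear genome; right, share of each arm's peaks found in 1 library or in all 4 against strength class (1 to 5), as mean and SD of 4 libraries. The arms lie together at 77.2% in all 4 libraries among the strongest peaks and apart, 74.1% against 66.4% in 1 library, among the weakest.

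Libraries of the same state overlapped hardly more than libraries of different states on either arm. The Jaccard index, the covered bases that 2 lists had in common as a share of those covered by either, on 21q was 20.1% for the asynchronous pair, 20.8% for the mitotic pair and 18.8% to 22.05% across states. On 22q it was 19.1% and 20.02% within states and 18.2% to 21.6% across them. The mean within states less that between states was 0.094 percentage points on 21q and 0.067 on 22q, and the highest value on both arms was that of the deepest libraries, asynchronous replicate 3 and mitotic replicate 4. Window profiles followed each other closely within and across states. Over the 32 windows of 21q Spearman's rho was 0.944 to 0.975 across and 0.961 to 0.975 within states, and over the 35 of 22q it was 0.968 to 0.981 and 0.977 to 0.987. These are across windows, which are not independent replicates.

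On 22q the share of a library's SAF-A peaks was lower in both mitotic libraries than in both asynchronous ones. On 21q the groups overlapped in this share over the full lists, but not at a -log10 q of at least 5. The 22q share of nuclear peaks was 2.42%, 2.40%, 2.18% and 2.33%, lowest in mitotic replicate 3. The means were 2.41% ± 0.0168 and 2.26% ± 0.106, a ratio of 0.935 (SD, n = 2; exact two-sided permutation p = 0.333, the smallest that 2 against 2 allows). Without mitotic replicate 3 the difference was -0.082 percentage points in place of -0.157. The 21q share was 1.23%, 1.29%, 1.29% and 1.24%, with means of 1.26% ± 0.0450 and 1.27% ± 0.0343 (SD, n = 2; exact permutation p = 1.00). Covered length gave the same picture. The 22q share of covered bases was 2.42%, 2.41%, 2.15% and 2.31%, with means of 2.41% ± 0.00944 and 2.23% ± 0.113 (exact permutation p = 0.333). Without mitotic replicate 3 that difference was -0.10 percentage points in place of -0.181. The 21q share of covered bases was 1.23%, 1.34%, 1.28% and 1.25% (exact permutation p = 1.00). Shares without overlap and lower in mitotic cells occurred in 33.3% of the 24 units for peaks and in 33.3% for covered bases. The count alone is thus no result about 22q. In size, the 22q difference of -0.10 log2 units in the share of peaks was the most negative of the 24 units, followed by chromosome 7 at -0.05. For covered bases chromosome Y, with 58 to 95 peaks per library, was the most negative at -0.113, and 22q came next at -0.112. Unscaled, the number of 22q peaks per Mb was higher in mitotic cells, at 62.3 ± 19.2 against 60.8 ± 12.3 (SD, n = 2; exact permutation p = 1.00), with mitotic replicate 4 having the longest list. The difference between the arms was not separated from the spread between libraries. The 22q to 21q ratio of density averaged 0.86 ± 0.06 log2 units over the asynchronous and 0.76 ± 0.11 over the mitotic libraries (SD, n = 2), with overlapping groups (exact permutation p = 0.667).

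In every strength class the mean 22q share of peaks was lower over the mitotic than over the asynchronous libraries. In the strongest class the share was 2.20%, 2.18%, 2.02% and 2.05%. In class 4 it was 2.56%, 2.56%, 2.28% and 2.50%, and in class 2 2.49%, 2.64%, 2.32% and 2.43%. In these 3 classes the groups did not overlap (exact permutation p = 0.333 each, the smallest that 2 against 2 allows). In classes 1 and 3 they overlapped, at 2.25%, 2.36%, 2.16% and 2.31% and at 2.63%, 2.24%, 2.12% and 2.36%. On 21q the groups did not overlap in 2 classes, with opposite signs, at 0.132 percentage points in class 1 and -0.137 in class 3. The rate of such separation by class was not computed for other chromosomes, so these counts of classes are no result about 22q. Median peak width, given above for each library, was larger in both mitotic lists than in both asynchronous ones on each arm (exact permutation p = 0.333). The narrowest peak of each list also differed, at 174, 169, 183 and 182 bp.

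**Figure D4:**
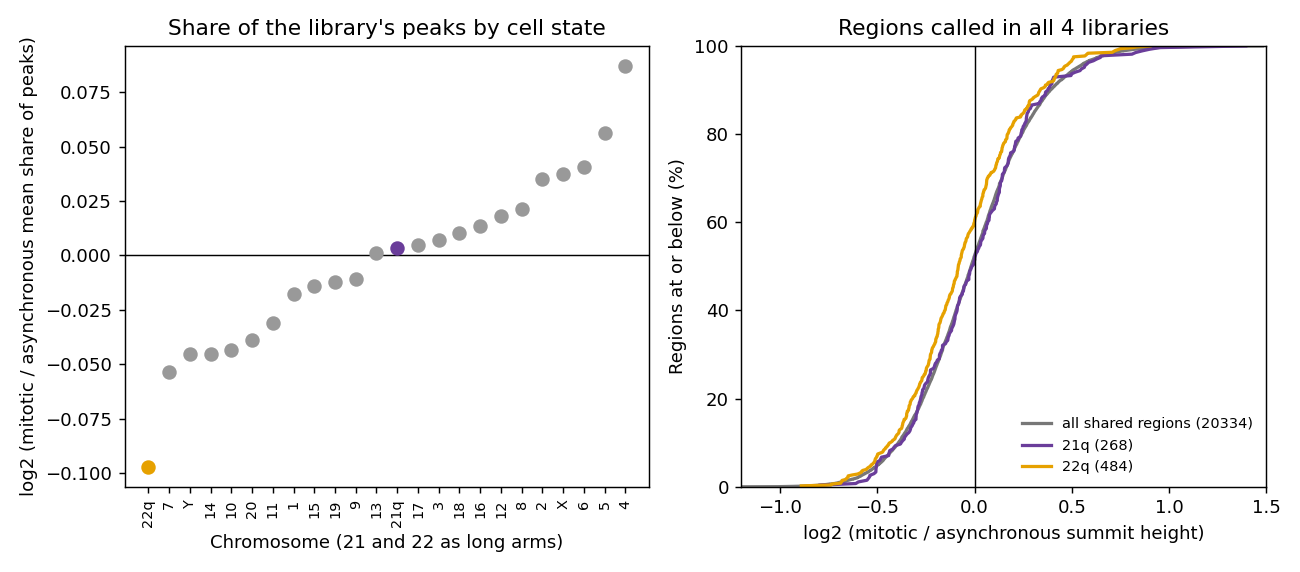
Left, log2 ratio of the mean mitotic to the mean asynchronous share of peaks for each chromosome, with 21 and 22 as long arms; right, cumulative share of regions called in all 4 libraries against the log2 difference in summit height (mitotic less asynchronous). 22q had the lowest share ratio of the 24 units and its curve lies to the left of that of all regions (median -0.08 against -0.02), while 21q follows the curve of all regions (median -0.01).

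Summit heights at regions called in all 4 libraries were slightly lower on 22q in mitotic cells, and about even on 21q. Height is the number of fragments at the summit, and it was set relative to the library's own median over the 20334 such regions, so a change common to all of them is not seen. Of these regions 268 were on 21q and 484 on 22q. The mean log2 height on 22q was 0.068, 0.097, 0.029 and 0.011, with both mitotic values below both asynchronous ones (-0.06 log2 units; exact permutation p = 0.333). On 21q it was -0.024, -0.0029, 0.0098 and -0.036, with overlapping groups (exact permutation p = 1.00). Region by region, the median mitotic less asynchronous difference was -0.08 log2 units on 22q, -0.01 on 21q and -0.02 over all regions, and 22q had the lowest median of the 24 units. Chromosomes 17, 7 and 19 came next, at -0.059, -0.054 and -0.049. Differences were within 0.5 log2 units at 88.1% of 21q regions and 89.5% of 22q regions, against 89.4% of all. The groups did not overlap, with both mitotic heights lower, at 133 regions of 22q (27.5%) and 65 of 21q (24.3%), against 20.2% of all regions. Both mitotic heights were higher at 55 regions of 22q (11.4%) and 47 of 21q (17.5%), against 17.1% of all. These regions were read from the same libraries as the peak shares, so the measures are not independent.

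By limma with Benjamini-Hochberg adjustment 1 of these regions passed the threshold of 0.05, and it was on 21q. It was higher in mitotic cells, a direction in which 0.0492% of all regions passed, and 0 of the regions on either arm passed in the other, where 0.00984% of all did. Chromosome 21 from 26999983 to 27000761 (779 bp) had 10, 14, 29 and 42 fragments at its summit. Relative to the shared-region median these were 0.400, 0.667, 1.45 and 1.27, and both mitotic values were above both asynchronous ones. The difference was 1.40 log2 units (SE 0.30, limma adjusted p = 0.017). It did not pass without asynchronous replicate 3 (1.03, adjusted p = 0.30), mitotic replicate 3 (1.30, 0.39) or mitotic replicate 4 (1.49, 0.076), with heights scaled to the genome background (1.37, 0.072) or with an untrended variance prior (1.40, 0.30). On 21q 11 regions had an unadjusted p under 0.05 in the higher and 10 in the lower direction, and on 22q 11 and 26, where 4.08% and 4.82% of all regions did.

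The regions with the next smallest p did not pass. On 22q the region from 42148398 to 42148924 had 32, 27, 46 and 63 fragments (0.71 log2 units, SE 0.23, limma adjusted p = 0.22). On 21q the regions from 34860867 and 34162293 had 14, 12, 24 and 33 and 21, 14, 37 and 33 fragments. Among the lower ones in mitotic cells, chromosome 22 from 43541064 to 43541615 had 27, 21, 9 and 23 fragments (-0.89, SE 0.30, limma adjusted p = 0.27), and from 36941361 to 36942420 the counts were 44, 39, 27 and 32. On 21q the region from 42597948 to 42598441 had 62, 52, 31 and 56 fragments (-0.61, SE 0.21, limma adjusted p = 0.28), and that from 42515911 had 29, 31, 15 and 25. Mitotic replicate 3 had the lowest count in each of these 4 lower regions, and scaled to the library median both mitotic values lay below both asynchronous ones. That library also had the lowest median over regions called in all 4 libraries, at 25, 21, 20 and 33 fragments. The regions were chosen for a small p in this direction, so the separation of the groups is no further support.

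Regions called in both libraries of a state and in neither of the other were few on both arms. On 21q 44 regions were asynchronous-only (1.47%, 95% Wilson interval 1.10% to 1.97%) and 81 mitotic-only (2.70%, 2.18% to 3.35%). On 22q there were 128 (2.35%, 1.98% to 2.79%) and 159 (2.92%, 2.51% to 3.40%). In the nuclear genome 1.66% of regions were asynchronous-only and 2.80% mitotic-only. The asynchronous-only share of 22q thus lay above the genome's, and the other 3 intervals included the genome's share. All but 1 of the pairs of libraries from different states showed such an excess on 22q too. Asynchronous replicate 3 with mitotic replicate 4 had 5.11% (4.55% to 5.72%) against 4.04% in the genome. Asynchronous replicate 4 with mitotic replicate 4 had 3.12% (2.69% to 3.62%) against 2.50%, and both replicates 3 had 1.91% (1.58% to 2.31%) against 1.496%. For asynchronous replicate 4 with mitotic replicate 3 the interval included the genome's share, at 1.01% (0.777% to 1.31%) against 0.963%. The median summit of such regions on 21q held 14 and 12.5 fragments (asynchronous-only) and 12 and 16 (mitotic-only), close to the medians of 12, 12, 11 and 15 over all peaks of the arm and below the 24, 20, 20 and 33 of its regions called in all 4 libraries. The highest ranked asynchronous-only region of 22q, from 18749202 to 18749479, had 20 and 27 fragments, followed by 25078494 to 25079084 with 14 and 14 and 38138388 to 38138608 with 33 and 29. On 21q they were 43310375 to 43310798 (32 and 29 fragments), 39809954 to 39810391 (15 and 13) and 44258967 to 44259463 (15 and 15). The highest ranked mitotic-only regions were 39835390 to 39835827 on 21q, with 16 and 29 fragments, and 38104508 to 38104822 on 22q, with 36 and 51. At 36170771 and 32749440 on 21q the counts were 13 and 20 and 17 and 25, and at 25054722 and 36834880 on 22q they were 25 and 40 and 21 and 34. At the stricter threshold of -log10 q of at least 5, 3 and 30 regions were left on 21q and 14 and 37 on 22q, asynchronous-only first.

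No 1 Mb window of either arm passed limma on covered bases. Of the 31 windows tested on 21q and 34 on 22q, 0 passed after Benjamini-Hochberg adjustment over 2932 windows of the nuclear genome, where 0% passed, and the smallest adjusted p was 0.53 and 0.50. At an unadjusted p under 0.05 there were 2 higher and 2 lower in mitotic cells on 21q, and 0 higher and 6 lower on 22q, against 4.09% and 2.63% of all windows. The groups did not overlap, with both mitotic libraries lower, in 12 windows of 22q (35.3%) and 8 of 21q (25.8%), against 15.3% of all windows. Both were higher in 5 windows of 22q (14.7%) and 6 of 21q (19.4%), against 20.7% of all windows. Windows of the nuclear genome held fewer summits than those of 22q (medians of 18.3 and 67.0), and the part of this in these shares was not tested. The windows were also read from the same libraries as the arm shares, so these counts are no further support. Neighbouring windows of 22q had the smallest p in the lower direction. From 29000001 to 30000000 there were 84, 53, 43 and 65 summits, and covered bases in the window per Mb that the library covers in all came to 735 ± 131 for the asynchronous and 517 ± 42.6 for the mitotic libraries (SD, n = 2; -0.49 log2 units, SE 0.14, limma adjusted p = 0.50). From 28000001 there were 47, 44, 19 and 45 summits, and 477 ± 97.8 against 311 ± 56.7 covered bases per covered Mb (-0.60, SE 0.18, limma adjusted p = 0.52). The densest window of 22q, from 38000001, came to 1561 ± 103 and 1238 ± 118 (-0.33, SE 0.10, limma adjusted p = 0.52). On 21q the window from 36000001 had 45, 41, 18 and 44 summits, 412 ± 47.9 against 268 ± 94.5 covered bases per covered Mb (-0.64, SE 0.21, limma adjusted p = 0.53). In the other direction, chromosome 21 from 24000001 had 25, 19, 33 and 37 summits, 232 ± 6.47 against 354 ± 63.9 (0.58, SE 0.20, limma adjusted p = 0.59). Inside the sparse run the windows of smallest p went both ways on few peaks: the window from 21000001 had 0, 0, 5 and 4 summits, and the window from 19000001 had 5, 2, 0 and 1. A pseudocount of 10 was added to each window's value before taking log2.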

How the data were processed

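The build is hs1 and the tools include MACS2, Bowtie2, fastp and bedtools, per the submitters' processing notes. Not given in the sources used here are versions, parameters, any control, duplicate removal and how the 1 pg E. coli spike-in was used. The authors deposited 1 peak list per library. The fold is a ratio as deposited, of fragments at the summit over the local background, the deposited values in -log10 are the authors' p-value and q-value, and the deposited score repeats the q-value and was not used. All were used only within a list, apart from pileups.

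Summit pileups were solved from the deposited fold and p. All came out whole within 0.05, as did 100% of 20000 simulated ones. Windows and shared summits were fitted over the nuclear genome with limma 3.58.1 (trended prior, R 4.3.3) and Benjamini-Hochberg adjustment. On simulated data, 65% of 200 windows changed 2-fold among 2932 were recovered, and 60.5% of 200 regions changed 2-fold among 20334. Changed 1.5-fold, 40% of windows and 6% of regions were recovered. Regions were simulated with counting spread alone, so recovery may be lower where libraries differ by more than that. With 2 residual degrees of freedom, SE and p rested mostly on the spread pooled over features. Libraries were compared by exact permutation, and Wilson intervals were computed with scipy 1.17.1. Alternatives were a stricter q, other overlap rules, widths, scalings, pseudocounts, arm limits, the replicate block and each library left out. Members and lists were chosen with earlier results of these data known. Regions and windows named were taken from fixed lists on each arm. These were the 5 strongest regions called in all 4 libraries, the 3 of smallest limma p in each direction and the 3 strongest of each state alone. Windows were the densest, the sparsest and those of smallest p. Not every region of smallest p and not every listed window is named above. The genes chosen for naming were not placed, since their build differs.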

Additional observations from a re-analysis of the deposited data

How the results depend on the processing

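The 22q to 21q density ratio kept its direction in every setting tried, and was 0.77 to 0.85 log2 units with each library left out. The lower 22q share in mitotic cells kept its direction in all settings but 1: differences were -0.23 to -0.082 percentage points of peaks and -0.26 to -0.10 of covered bases with a library left out, and without scaling the density difference was 1.56 peaks per Mb. At the stricter threshold the 22q shares of covered bases overlapped between states (-0.16 points, exact permutation p = 0.667). The ratio's mean difference between states stayed negative (-0.18 to -0.026 with a library left out). Matched by replicate number, it was -0.22 log2 units for replicate 3 but 0.018 for replicate 4. For 21q the difference in peak share (0.0030 points) changed sign at the stricter threshold (-0.038). There both mitotic shares lay below both asynchronous ones (exact permutation p = 0.333), as they did on 22q (-0.147, p = 0.333 by the same test). The 21q difference also changed sign with a common smallest width (-0.0030) and with arm limits 1 Mb further in (-0.015). With a library left out it ran from -0.029 to 0.035. The difference in the 21q share of covered bases (-0.020) ran from -0.078 to 0.038 and was 0.0030 by summits. The mean share of peaks found in another library was 38.0% on 21q and 38.7% on 22q. It was 60.9% and 60.3% at the stricter threshold, 25.1% and 24.5% with a reciprocal overlap of 50%, 41.4% and 40.9% with lists of equal length, and 35.8% to 39.2% and 36.6% to 39.8% with a library left out; the within less between value (0.37 and 0.65 points) then ran from -3.85 to 2.52 and from -3.28 to 3.06 points, negative on both arms only without mitotic replicate 3. State-only regions (asynchronous, then mitotic) numbered 3 and 30 on 21q and 14 and 37 on 22q at the stricter threshold. With 1 library of the other state left out they were 58 to 127 and 125 to 161 on 21q and 162 to 277 and 231 to 296 on 22q, the most without mitotic replicate 4 (asynchronous-only) and without asynchronous replicate 3 (mitotic-only); without a library of the state itself they are not defined. Calls among shared regions of 21q were 0 to 1 with a library left out, and 0 with background scaling and 0 without the variance trend; on 22q they were 0 in every setting, as were window calls on both arms. The 21q median height less that of all regions (0.0081) ran from -0.022 to 0.011, and that of 22q (-0.065) from -0.079 to -0.041. Without scaling the median window difference moved from 0.02 to 0.26 log2 units. The cause of these changes was not tested. The labels do not say whether replicate numbers pair the libraries. The replicate 3 less 4 differences of the states correlated at -0.00029 over windows and -0.049 over regions. Such correlations cannot show whether libraries of the same number were prepared together. With the replicate block there were 3 window and 14 region calls in the genome against 0 and 12, of which 0 and 1 lay on these arms, and the 22q share was lower in 2 of 2 pairs (-0.24 and -0.070 points; exact p = 0.5, the smallest possible).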
